A study of Homo sapiens with 45 samples.

Results

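The genes described are CXCL8 and 6 further CXC chemokine genes, CXCL1, CXCL2, CXCL3, CXCL5, CXCL6 and CXCL16, 7 of the 28278 gene names counted in HCT116 cells after depletion of HNRNPK. CXCL8 was chosen by its rise in these libraries, so its difference between HNRNPK siRNA and control is given as a description with no test. The other 6 were chosen by name, as relatives of CXCL8: CXCL1, CXCL2, CXCL3, CXCL5 and CXCL6 share its cluster on chromosome 4, and CXCL16 is a relative on chromosome 17. HCT116 is an established human colon cancer line, and HNRNPK encodes hnRNP K, which binds C-rich stretches of RNA and DNA. The siRNA concentration was 25 nM and the time 72 hours. RNA was sequenced from 4 libraries with HNRNPK siRNA (siHNRNPK), 4 with a nontargeting control siRNA (siNTC5) and 2 with a further nontargeting control (Scramble). Replicates 1 and 2 of siNTC5 and siHNRNPK were made with a TruSeq kit and replicates 3 and 4 with a Ligation kit, all from RNA purified with Maxwell. The Scramble libraries, replicates 5 and 6, were made with TruSeq from RNA purified with RNeasy. All groups were transfected HCT116 cells, and no untransfected group was analysed. Chromatin of control and HNRNPK siRNA cells was described by 7 lists of domains, for lamin B1, H3K9me3 and H3K27me3 in both conditions and for H3K9me2 in control cells.

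CXC chemokines are small secreted proteins that attract leukocytes. CXCL8 (interleukin-8), CXCL1, CXCL2, CXCL3, CXCL5 and CXCL6 act on neutrophils through the receptors CXCR1 and CXCR2, and epithelial cells, colon cancer cells included, can secrete them. CXCL16 is made as a membrane protein, is shed by the proteases ADAM10 and ADAM17, and is recognised by CXCR6. Transcription of CXCL8 and its relatives is switched on by NF-kappa-B and AP-1 downstream of interleukin-1, tumour necrosis factor and Toll-like receptors, and their messages are short-lived because proteins that bind AU-rich elements recruit decay factors.

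The chromosome 4 members lie between positions 73740569 and 74099195 of GRCh38.p14, an interval of 358.6 kb, in the order CXCL8 (73740569 to 73743716), CXCL6 (73836678 to 73838760), CXCL1 (73869393 to 73871308), CXCL5 (73995642 to 73998677), CXCL3 (74036589 to 74038689) and CXCL2 (74097040 to 74099195). CXCL16 lies on chromosome 17 at 4733533 to 4739928 and overlaps MED11 and ZMYND15. The 150 bases upstream of each chromosome 4 member, from RefSeq and read 5′ to 3′ on the gene's own strand, are shown because these 6 genes are known to share a promoter plan. Capitals mark matches, sought on both strands, to GGANTTTCC, a form of the NF-kappa-B motif, and to TGANTCA, the AP-1 motif.
CXCL8: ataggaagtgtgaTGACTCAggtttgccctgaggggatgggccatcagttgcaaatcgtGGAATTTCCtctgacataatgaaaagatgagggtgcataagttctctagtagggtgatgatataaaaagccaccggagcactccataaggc
CXCL1: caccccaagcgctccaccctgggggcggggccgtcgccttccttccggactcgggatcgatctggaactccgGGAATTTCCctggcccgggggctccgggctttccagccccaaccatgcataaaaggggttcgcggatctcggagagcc
CXCL2: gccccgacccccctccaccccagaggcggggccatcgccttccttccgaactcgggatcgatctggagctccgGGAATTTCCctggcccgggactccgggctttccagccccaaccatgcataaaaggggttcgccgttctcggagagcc
CXCL3: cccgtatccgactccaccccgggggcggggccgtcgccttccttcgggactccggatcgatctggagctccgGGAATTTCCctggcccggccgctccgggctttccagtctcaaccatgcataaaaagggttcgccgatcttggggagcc
CXCL5: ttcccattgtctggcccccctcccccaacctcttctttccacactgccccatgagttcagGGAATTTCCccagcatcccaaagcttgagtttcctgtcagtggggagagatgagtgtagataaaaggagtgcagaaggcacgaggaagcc
CXCL6: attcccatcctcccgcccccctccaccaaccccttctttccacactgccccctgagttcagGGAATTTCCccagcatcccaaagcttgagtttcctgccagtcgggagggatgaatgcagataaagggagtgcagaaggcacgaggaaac
The CXCL8 window is chr4:73740419-73740568 on the plus strand. CXCL1 (chr4:73869243-73869392) and CXCL6 (chr4:73836528-73836677) are also on the plus strand, and CXCL2 (chr4:74099196-74099345), CXCL3 (chr4:74038690-74038839) and CXCL5 (chr4:73998678-73998827) are on the minus strand.

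All 6 windows hold the NF-kappa-B letters, against 0.94% of 35116 promoter windows of the same length. These 6 genes are known to share a promoter plan, so a match in all 6 is a description and no test of enrichment. With the base before the annotated start as -1, the match lies at -91 to -83 in CXCL8, at -90 to -82 in CXCL5 and at -89 to -81 in CXCL6. In CXCL1 and CXCL3 it lies at -78 to -70 and in CXCL2 at -77 to -69. The AP-1 letters stand in the CXCL8 window alone of the 6, at -137 to -131, and in 4.17% of all windows. The third motif searched, TTGCNNAA for C/EBP, matched none of the 6 windows and 5.02% of all windows. The CXCL8 window holds ttgcaaat, which differs from these letters only in the last. A window without a strict match is therefore not shown to lack a C/EBP site. The motifs did not overlap one another. The windows are not independent: CXCL1, CXCL2 and CXCL3 were 86.3% to 88.8% identical to each other, CXCL5 and CXCL6 were 89.4% identical, and CXCL8 was 44.0% to 48.0% identical to the other 5. These matches describe letters and were not measured as binding.

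The check of the labels came first. HNRNPK fell from 884 ± 78.0 to 199 ± 45.3 CPM (counts per 1000000 counts, scaled by TMM here and below; mean ± SD, n = 4 libraries each), a log2 fold change of -2.17 ± 0.06 (SE; edgeR quasi-likelihood test, adjusted p = 7.293e-15). Total counts ranged from 12107280 to 23633851 in the 8 libraries and were 59209169 and 55007171 in the Scramble libraries. Nothing in the labels says whether libraries came from separate cultures, so p-values measure the spread between these libraries, which may be technical. As a background, 71.5% of the 13933 genes tested passed an adjusted p of 0.05 in this comparison, 35.5% as higher and 36.1% as lower, and in 28.5% every siHNRNPK library lay above every siNTC5 library. A call is therefore common among all genes, and the members' calls are read against these shares.

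CXCL8 was far more abundant after HNRNPK siRNA. The 4 siNTC5 libraries held 35, 47, 17 and 21 CXCL8 counts, and the 4 siHNRNPK libraries held 459, 506, 376 and 405. In CPM the controls were 2.08, 1.96, 1.13 and 1.15 and the siHNRNPK libraries 30.3, 37.6, 31.7 and 33.4. The groups did not overlap, and the lowest siHNRNPK library was 14.6 times the highest control. Mean CPM was 1.58 ± 0.51 in siNTC5 and 33.2 ± 3.17 in siHNRNPK (SD, n = 4 each), a ratio of 21.0. The log2 fold change of 4.37 ± 0.14 (SE) was number 36 from the top among tested genes, and no test is attached to it because it chose the gene.

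The difference was present with both kits. With TruSeq the means were 2.02 and 33.9 CPM, a ratio of 16.8, and with Ligation 1.14 and 32.5 CPM, a ratio of 28.5. The siHNRNPK means lay close together, and the Ligation controls lay below the TruSeq controls. The difference of the log2 fold changes, Ligation minus TruSeq, was 0.76 ± 0.30 (SE; edgeR quasi-likelihood test, adjusted p = 0.3294 over all genes), so a kit dependence of CXCL8 was not called. HNRNPK itself fell to 0.249 of control with TruSeq and to 0.196 with Ligation, an interaction of -0.34 ± 0.08 (adjusted p = 0.1005), which was called in 4 of 12 alternatives, DESeq2 among them (adjusted p = 0.01354). Its part in the CXCL8 values was not tested. Of the 5 tested members 0 were called in this test by edgeR, against 0.129% of all genes, and 1, CXCL8, had an unadjusted p under 0.05. DESeq2 gave an adjusted p to CXCL16 alone of the 5 (0.8272). The other 4 differences were -0.29 ± 0.56 for CXCL1, 0.60 ± 0.62 for CXCL2, -1.59 ± 0.77 for CXCL3 (adjusted p = 0.4362) and 0.15 ± 0.10 for CXCL16 on the log2 scale.

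CXCL1, CXCL2 and CXCL3, known together as the GRO chemokines, act on CXCR2. All 3 were higher after HNRNPK siRNA, by less than CXCL8 on the log2 scale. Their sequences are close to each other, and how reads shared between the copies were counted is not given in the sources used here, so the division among the 3 is uncertain. Each also passed the filter on low counts, which asks for 0.665 CPM in 4 libraries, only with the siHNRNPK libraries: 3, 2 and 0 of the 4 controls reached that level for CXCL1, CXCL2 and CXCL3, against 4 of 4 siHNRNPK libraries for each. CXCL3, with 0 controls at that level, could pass only by being higher there. For CXCL1 and CXCL2 the filter favoured that direction without fixing it. The number of members called is therefore not counted as support.

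CXCL1 had 19, 12, 18 and 17 counts in siNTC5 and 42, 44, 29 and 52 in siHNRNPK. Its mean CPM went from 0.94 ± 0.31 to 3.19 ± 0.80 (SD, n = 4 each), and the lowest siHNRNPK library, at 2.44 CPM, was above the highest control, at 1.2. The log2 fold change was 1.81 ± 0.27 (SE; edgeR, adjusted p = 7.88e-06). With no filter on low counts it was 1.77 (adjusted p = 9.791e-13).

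CXCL3 had the fewest control counts of the 3, with 2, 6, 4 and 11 in siNTC5 and 24, 24, 18 and 12 in siHNRNPK. Mean CPM was 0.31 ± 0.21 and 1.47 ± 0.34, and the log2 fold change was 2.22 ± 0.39 (SE; edgeR, adjusted p = 5.233e-05). The groups did not overlap in CPM, although siNTC5 replicate 4, at 0.60, and siHNRNPK replicate 4, at 0.99, came near each other. The 2 kits gave different sizes, 3.07 with TruSeq alone and 1.45 with Ligation alone (adjusted p = 0.000294 and 0.008047).

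CXCL2 showed the smallest difference of the GRO genes. Counts were 10, 35, 13 and 10 in siNTC5 and 34, 21, 18 and 27 in siHNRNPK. Mean CPM was 0.87 ± 0.42 and 1.89 ± 0.40, and the lowest siHNRNPK library was only 1.04 times the highest control, siNTC5 replicate 2. The log2 fold change was 1.08 ± 0.31 (SE; edgeR, adjusted p = 0.004415). In the TruSeq libraries alone, which hold that high control, it was 0.83 and not called (adjusted p = 0.1191), and without that library it was 1.51 (adjusted p = 0.0003366).

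Summed over CXCL1, CXCL2 and CXCL3, which removes any division of reads among them but not the effect of shared reads left out or counted more than once, the controls held 31, 53, 35 and 38 counts and the siHNRNPK libraries 100, 89, 65 and 91. The summed CPM was 2.12 ± 0.21 against 6.55 ± 0.83, a ratio of 3.09, and the lowest siHNRNPK library was 2.35 times the highest control. Relative to its mean, the sum varied less between controls than CXCL2 or CXCL3 alone. Its SD itself, 0.212 CPM, was not below that of CXCL3, 0.206 CPM.

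CXCL5 and CXCL6, whose proteins are close relatives and also attract neutrophils, were not detected at this depth. CXCL6 had 0 counts in all 10 libraries, and CXCL5 had 1 count, in siHNRNPK replicate 1. The CXCL5 gene overlaps the uncharacterised LOC124900715. A count of 0 allows up to 3 counts, which is 0.13 to 0.25 CPM in the 8 libraries and 0.051 to 0.055 CPM in the Scramble libraries, for counting error only. Neither gene entered the test. The NF-kappa-B letters upstream were thus present in detected and undetected genes of the cluster alike.

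CXCL16 was well expressed and nearly level. It had 991, 1399, 828 and 1009 counts in siNTC5 and 961, 790, 721 and 807 in siHNRNPK, or 56.9 ± 1.97 against 62.3 ± 3.38 CPM (SD, n = 4 each). Of the siHNRNPK libraries 3 of 4 lay above every control, and replicate 2, at 58.7 CPM, lay within the control range. The log2 fold change was 0.13 ± 0.06 (SE; edgeR, adjusted p = 0.04743), which passed the threshold narrowly. It did not pass with the replicate block in place of kit (0.13, adjusted p = 0.06364) or with TruSeq alone (0.07, adjusted p = 0.4974), and with Scramble libraries added to the controls the direction turned (-0.01, adjusted p = 0.9486). Without siNTC5 replicate 3 or 4, or siHNRNPK replicate 1, 3 or 4, the call was also lost, with adjusted p from 0.07024 to 0.2309. As its locus overlaps MED11 and ZMYND15 and the strand counted is not given, some of its reads may belong to them.

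**Figure D1:**
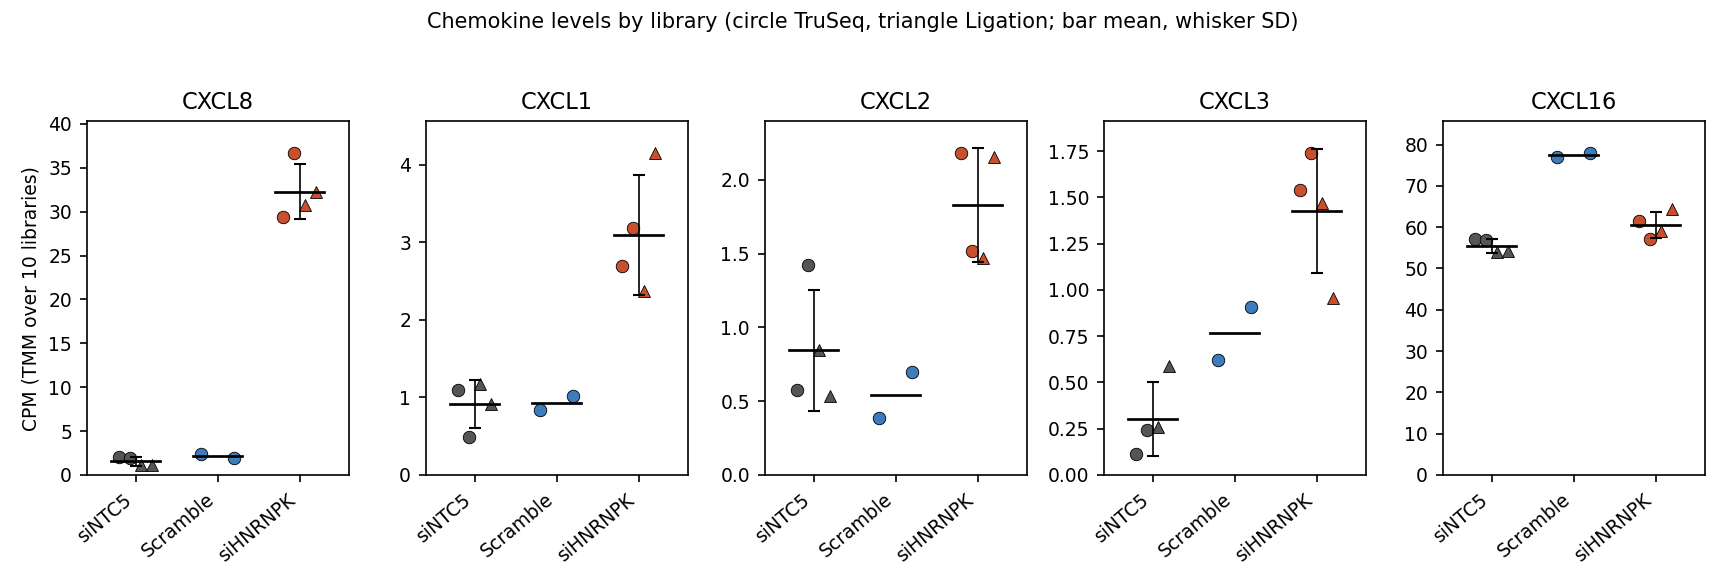
CPM of 5 chemokines (TMM over 10 libraries, vertical axes from 0 and different for each gene) in siNTC5, Scramble and siHNRNPK libraries; each point is 1 library, circles TruSeq and triangles Ligation, bars the mean and whiskers the SD for groups of 4. CXCL8 lay at 29.4 to 36.6 CPM in siHNRNPK and at 1.11 to 2.36 CPM in all 6 control libraries, while CXCL16 was highest in the Scramble libraries.

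The Scramble libraries give a second set of nontargeting controls, which differs from siNTC5 in purification kit, count table and depth, so that these cannot be told apart from the siRNA. Both Scramble libraries are TruSeq, so in the model with kit the difference is in effect taken against the TruSeq controls, siNTC5 replicates 1 and 2. Of all genes tested, 68.5% differed between Scramble and siNTC5 at an adjusted p of 0.05, and of the 5 tested members CXCL3 and CXCL16 did. CXCL8 had 121 and 90 counts in the Scramble libraries, or 2.36 and 1.90 CPM on a scale shared by all 10 libraries, against 1.11 to 2.01 in siNTC5 and 29.4 to 36.6 in siHNRNPK. Both sets of controls were thus low for CXCL8. Scramble minus siNTC5 was 0.07 ± 0.25 on the log2 scale (SE; edgeR, adjusted p = 0.8049), with siHNRNPK minus siNTC5 at 4.37.

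CXCL1 was also alike in range in the 2 control sets, at 0.84 and 1.01 CPM in Scramble and 0.49 to 1.17 in siNTC5 (log2 difference 0.24 ± 0.41, adjusted p = 0.6169). CXCL2 was at 0.39 and 0.70 CPM in Scramble and 0.54 to 1.42 in siNTC5 (-1.0 ± 0.47, adjusted p = 0.07939). That difference was called without siNTC5 replicate 1 (-1.44, adjusted p = 0.009844) and was -0.15 without siNTC5 replicate 2 (adjusted p = 0.8599). CXCL3 differed: it was at 0.62 and 0.91 CPM in Scramble, 0.12 to 0.59 in siNTC5 and 0.96 to 1.74 in siHNRNPK. The TruSeq controls, against which the difference is taken, were its lowest, at 0.12 and 0.24, and the Ligation controls were at 0.26 and 0.59. The difference was 1.94 ± 0.58 (adjusted p = 0.00991), and 1.65 without Scramble replicate 6 (adjusted p = 0.05755). The siHNRNPK libraries still lay above every control of either kind, with 0.96 against 0.91 at the nearest.

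For CXCL16 the control sets differed by more than HNRNPK siRNA and siNTC5 did. Scramble libraries were at 76.9 and 77.9 CPM, siNTC5 at 54.0 to 57.0 and siHNRNPK at 57.2 to 64.3. Scramble minus siNTC5 was 0.39 ± 0.06 on the log2 scale (SE; edgeR, adjusted p = 0.0001145), beside 0.13 for siHNRNPK minus siNTC5. The order from the lowest was siNTC5, siHNRNPK, Scramble, and the nearest libraries of the first 2 were at 57.0 and 57.2 CPM. For CXCL8 and the GRO genes, by contrast, siHNRNPK was the highest group and the neighbouring control sets did not separate, except for CXCL3.

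The cells were checked for the markers of their type. Of 8 colon epithelial markers KRT8, KRT18, EPCAM and CDH1 were abundant, VIL1, LGALS4 and CEACAM5 had at most 6 counts in any library, and CDX2 had 122 to 248. Their summed level was 2095 to 2271 CPM in siNTC5 and 4130 to 5046 CPM in siHNRNPK. The 7 leukocyte markers summed to 2.42 to 3.12 CPM in siNTC5 and 10.8 to 11.9 CPM in siHNRNPK, led by ITGAM, with CD3E and MS4A1 at 0 in all 8 libraries and PTPRC at 0 to 2 counts. The 5 fibroblast markers summed to 44.5 to 73.1 and 75.1 to 122 CPM, nearly all COL1A1, with LUM at 0, and the 3 endothelial markers to 0.60 to 1.00 and 1.48 to 3.30 CPM. KRT8 and KRT18 made up most of the epithelial sum, and VWF most of the endothelial sum. All 4 sums were higher in every siHNRNPK library than in any siNTC5 library, as CXCL8 was. The same held for 28.5% of all tested genes, so this likeness to CXCL8 is common. Not every marker rose: mean CPM was lower in siHNRNPK for CDX2, LGALS4 and PDGFRB. The part of these sums in the CXCL8 difference was not tested. In bulk RNA, fewer cells with a gene and less RNA per cell cannot be told apart.

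Other chemokines stayed at the edge of detection. Of 15 further chemokine genes, among them PF4, PF4V1 and PPBP of the same cluster and the interferon-induced CXCL9, CXCL10 and CXCL11, 0 passed the filter. The highest count of any of them in any library was 12, for CCL20, a chemokine of the gut epithelium, at 0.086 ± 0.10 CPM in siNTC5 and 0.68 ± 0.20 in siHNRNPK. Of the receptors, CXCR1, CXCR2, CXCR6 and ACKR1 had at most 14 counts in any library and were not tested. CXCR2 was at 0.044 ± 0.054 CPM in siNTC5 and 0.57 ± 0.28 in siHNRNPK, and CXCR1 at 0.041 ± 0.029 and 0.28 ± 0.14. CXCR6 was at 0.22 ± 0.09 and 0.14 ± 0.14, and ACKR1 had 0 counts. The shedding proteases of CXCL16 were both called, in opposite directions. ADAM17 rose from 66.7 ± 2.29 to 99.6 ± 2.85 CPM (log2 fold change 0.58 ± 0.05, edgeR, adjusted p = 5.354e-09), and ADAM10 fell from 185 ± 2.41 to 156 ± 4.26 CPM (-0.24 ± 0.04, adjusted p = 3.807e-05). Scramble minus siNTC5 was larger for ADAM17, at 0.88 (adjusted p = 1.103e-07), and opposite for ADAM10, at 0.32 (adjusted p = 0.0001881).

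The cytokine pathway upstream of the chemokines did not move in one direction. Of its 20 listed genes 15 were tested, of which 4 were higher, 7 lower and 4 not called, with a median log2 fold change of -0.08, beside -0.004 over all tested genes. Among all tested genes 35.5% were called higher and 36.1% lower. TNF and IL6 had 0 counts in all 8 libraries, and IL1B had at most 3. IL1A, a cytokine that can act within the epithelium, was at 0.28 ± 0.10 CPM in siNTC5 and 1.33 ± 0.32 in siHNRNPK (log2 fold change 2.25 ± 0.35, edgeR, adjusted p = 1.545e-05), on 4 to 20 counts per library. TNFRSF1B, the second receptor of tumour necrosis factor, was at 0.40 ± 0.29 and 1.48 ± 0.34 CPM (1.88 ± 0.38, adjusted p = 0.0002212). Both are among the 4 higher genes and passed the filter only with the siHNRNPK libraries, with 0 and 1 of 4 controls at its level. The filter thus fixed the direction of IL1A and favoured that of TNFRSF1B, and their calls are not read as support. TLR5, the receptor of flagellin, fell from 2.66 ± 0.44 to 0.97 ± 0.12 CPM (-1.46 ± 0.24, adjusted p = 2.471e-05). The other called genes of the list, named after their values were seen, went both ways. TLR3, a receptor of double-stranded RNA, rose with a log2 fold change of 1.08 and the ubiquitin ligase TRAF6 with 0.41. The adaptor MYD88 fell with -1.0, the kinases IRAK1 and IRAK4 with -0.52 and -1.04, and the receptors IL1R1, IL1RAP and TNFRSF1A with -0.60, -1.14 and -0.25. The groups of TNFRSF1A overlapped. Scramble minus siNTC5, which shares the siNTC5 libraries, gave 1.23 for IL1RAP, 0.96 for TNFRSF1A and 0.32 for IL1R1, all opposite to siHNRNPK. TLR5 (0.56) and TLR3 (-0.15) were opposite too. The direction was the same as for siHNRNPK in TNFRSF1B (0.59), TRAF6 (0.28), MYD88 (-0.28), IRAK1 (-0.10) and IRAK4 (-0.19). IL1A had no such value.

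Transcription factors and inhibitors that act at these promoters went both ways. All 18 listed genes were tested, of which 11 were higher, 4 lower and 3 not called, beside 35.5% of all tested genes higher and 36.1% lower, and the median log2 fold change was 0.33. ATF3, a stress-induced factor of the AP-1 family, rose from 23.9 ± 5.04 to 121 ± 15.6 CPM (2.34 ± 0.07, edgeR, adjusted p = 7.293e-15). NFKBIA, the inhibitor that NF-kappa-B itself induces, rose from 26.5 ± 1.49 to 90 ± 5.28 CPM (1.76 ± 0.06, adjusted p = 4.584e-14). EGR1, an early growth response factor, fell from 240 ± 50.4 to 74.5 ± 13.2 CPM (-1.68 ± 0.05, adjusted p = 7.293e-15). Set beside Scramble minus siNTC5, which shares the siNTC5 libraries, ATF3 was at 2.34 for siHNRNPK and 1.83 for Scramble, NFKBIA at 1.76 and 0.48, and EGR1 at -1.68 and 0.59.

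The 5 NF-kappa-B subunits, named after their values were seen, were all called higher, with log2 fold changes of 0.17 for RELA, 0.50 for RELB, 0.50 for REL, 0.57 for NFKB1 and 0.64 for NFKB2. A call in that direction was made for 35.5% of all tested genes. Scramble minus siNTC5 gave larger values for RELA (0.43), RELB (1.12) and NFKB2 (0.88), and gave -0.45 for REL and -0.06 for NFKB1. TNFAIP3, a deubiquitinase that NF-kappa-B induces, also named after its value was seen, rose with 1.49, beside -0.42 for Scramble. NFKBIZ, of the same list and named likewise, was not called (0.16, edgeR, adjusted p = 0.291), beside -0.65 for Scramble. The 6 FOS and JUN genes, named likewise, divided: JUN (1.07) and FOSL1 (0.12) were called higher, FOS (-1.51), JUNB (-0.70) and JUND (-1.06) lower, and FOSL2 (0.05) was not called. The JUN difference depended on the kit, larger with Ligation by 1.17 on the log2 scale (edgeR interaction, adjusted p = 0.003902). Against siNTC5, Scramble gave 1.24 for JUN, 0.07 for FOSL1, -0.67 for FOS, 1.98 for JUNB, 1.97 for JUND and -0.41 for FOSL2. FOS varied widely within groups, at 109 ± 72.8 and 36.0 ± 18.3 CPM, and its groups overlapped. The groups also overlapped for RELA, RELB, FOSL1 and JUNB.

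**Figure D2:**
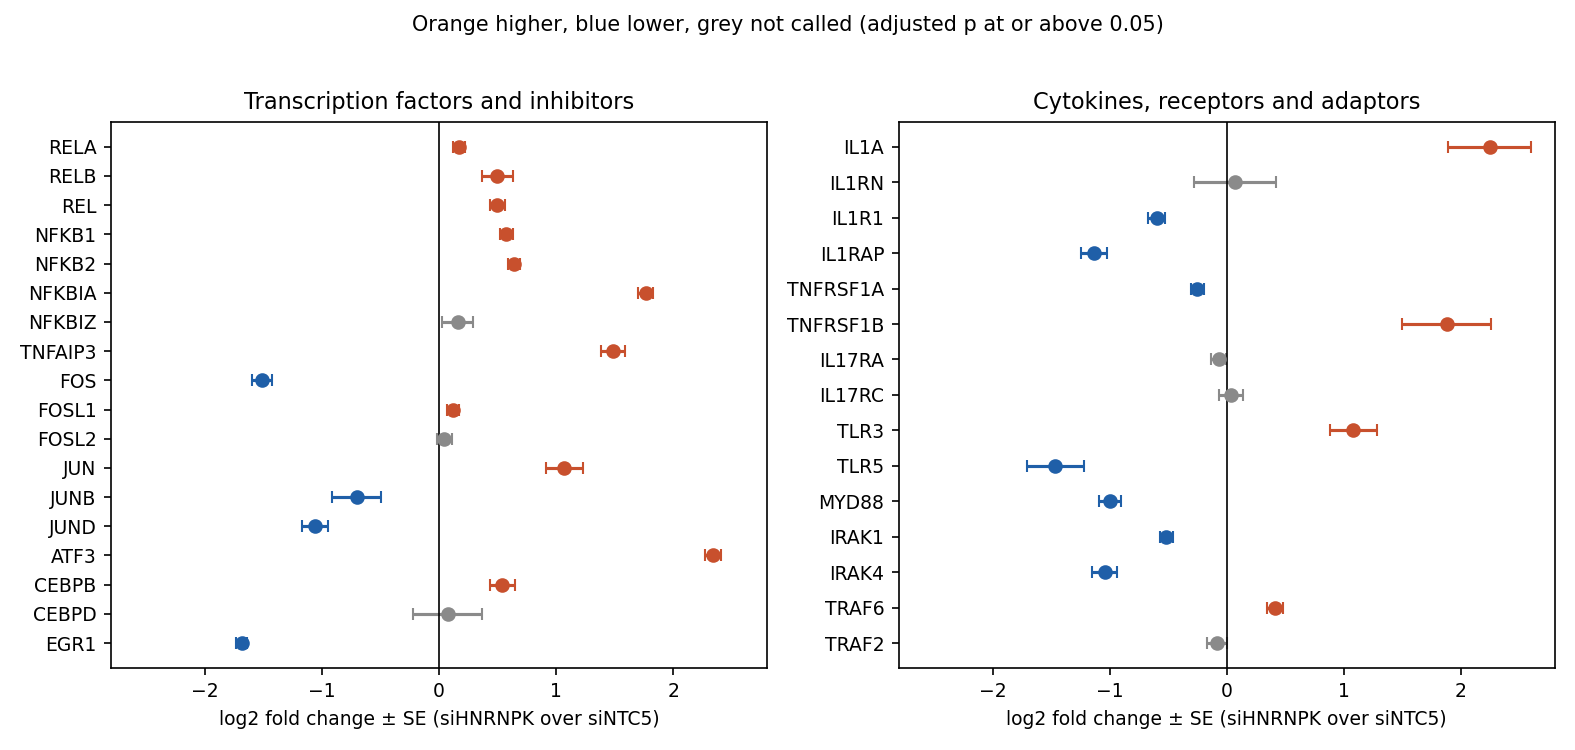
Log2 fold change of siHNRNPK over siNTC5 (horizontal axes) for the tested genes of the list of transcription factors and inhibitors, left, and of the list of cytokines, receptors and adaptors, right; points are edgeR estimates over 4 against 4 libraries, whiskers the SE. On the left 11 of 18 genes were called higher, led by ATF3 and NFKBIA, and on the right 4 of 15 were higher and 7 lower.

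Genes of chemokine message decay and stability went both ways. All 17 were tested, of which 6 were higher, 7 lower and 4 not called, beside 71.5% of all genes called, with a median of 0.02. ZFP36L2 and ZFP36L1, which bind AU-rich elements and promote decay, rose by log2 fold changes of 0.56 ± 0.07 and 0.47 ± 0.04 (edgeR, adjusted p = 1.811e-06 and 1.89e-08). Their relative ZFP36, named after its value was seen, fell with -0.40 ± 0.09 (edgeR, adjusted p = 0.000346), its groups overlapping. PCBP2, a relative of HNRNPK that binds C-rich RNA, fell from 610 ± 25.4 to 437 ± 20.8 CPM (-0.48 ± 0.04, adjusted p = 2.339e-09). Scramble minus siNTC5 gave 0.29 for ZFP36L2, 0.31 for ZFP36L1, 0.97 for ZFP36 and -0.23 for PCBP2.

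Genes around the cluster were examined next. Within 1 Mb of the cluster 19 further counted genes were listed, of which 10 were tested: 5 were higher, 3 lower and 2 not called, with a median of 0.38. Among all tested genes 35.5% were called higher and 36.1% lower, 71.5% in either direction, with a median of -0.004. RASSF6, the next counted gene upstream of CXCL8 and a Ras-association protein, rose from 3.43 ± 1.33 to 6.75 ± 0.71 CPM (0.98 ± 0.21, edgeR, adjusted p = 0.0003697). Further upstream ANKRD17 rose (0.58) and COX18 fell (-0.60). On the far side MTHFD2L, a mitochondrial folate enzyme, rose from 13.6 ± 2.63 to 18.0 ± 3.00 CPM (0.40 ± 0.09, adjusted p = 0.0006761), with overlapping groups. EPGN, EREG and AREG encode ligands of the EGF receptor family. EPGN fell (-0.79 ± 0.25, adjusted p = 0.008032), EREG rose from 766 ± 69.1 to 1247 ± 116 CPM (0.70 ± 0.04, adjusted p = 1.298e-11) and AREG rose with 0.36 ± 0.06 (adjusted p = 1.034e-05), its groups overlapping. BTC and LINC02562 were not called, at -0.16 and 0.50 (adjusted p = 0.5485 and 0.1633). PARM1 fell from 54.6 ± 2.88 to 33.5 ± 0.58 CPM (-0.70 ± 0.06, adjusted p = 4.708e-09), and its reads cannot be told apart from those of PARM1-AS1 where strand was not counted. Beside these, Scramble minus siNTC5 gave 1.76 for AREG, 0.58 for EREG and -1.21 for MTHFD2L.

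**Figure D3:**
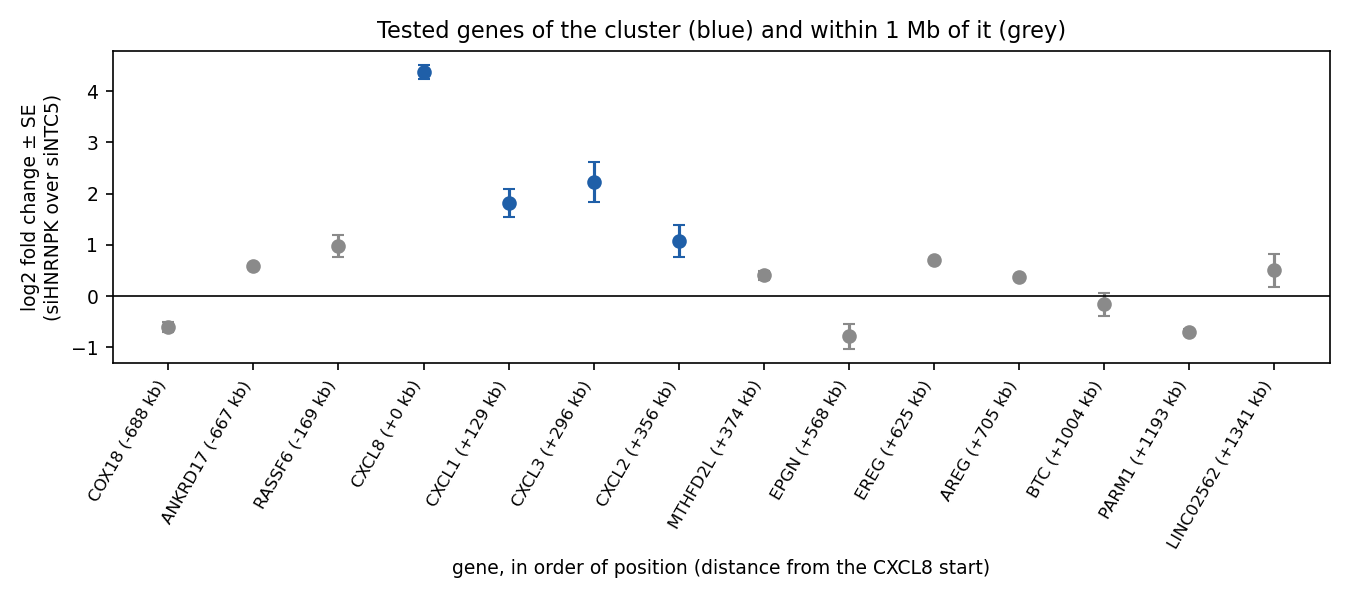
Log2 fold change of siHNRNPK over siNTC5 (vertical axis; whiskers the SE from edgeR, 4 against 4 libraries) of tested genes in order along chromosome 4, with the distance of each gene's lower coordinate from that of CXCL8. CXCL8 stands at 4.37, the 3 GRO genes between 1.08 and 2.22, and the 10 neighbours between -0.79 and 0.98; the GRO genes passed the filter only with the siHNRNPK libraries.

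In the domain lists the cluster was almost free of the marks measured. Domains are long stretches with raised ChIP signal, each with a deposited score whose unit is not given in the sources used here, and with 1 list per antibody and siRNA there are no replicates and no test. In control cells 0% of the cluster lay in lamin B1, H3K9me3, H3K9me2 or H3K27me3 domains, and in siHNRNPK cells 0% lay in lamin B1 or H3K27me3 domains. The CXCL8 gene itself lay in no domain of any of the 7 lists. The nearest lamin B1 domain, a stretch of 1845 kb, ended 715.6 kb upstream of CXCL8 in control cells and 770.6 kb upstream in siHNRNPK cells. An H3K27me3 domain of 275 kb over ALB, AFP and AFM ended 180.6 kb upstream in control and 175.6 kb in siHNRNPK.

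The exception was H3K9me3 in siHNRNPK cells. A domain at chr4:74035001-74170000, 135 kb long with a score of 0.538, covered all of CXCL3 and CXCL2 and 17.9% of the cluster, and reached into MTHFD2L. The control H3K9me3 list held none there, and its nearest domain ended 870.6 kb upstream of CXCL8. Only 18.4% of domains in the siHNRNPK list had a lower score, and with domains at or above the median score alone the cover was 0%. A further 2 domains of the same list, of 115 and 90 kb, followed downstream and were likewise absent from the control list. In the cluster with 1 Mb on each side, H3K9me3 cover was 5.49% in control and 20.3% in siHNRNPK.

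CXCL3 and CXCL2 thus had a higher mean CPM in siHNRNPK cells while lying in a domain listed for H3K9me3 there alone. CXCL8 and CXCL1 had a higher mean CPM outside it. For CXCL2 the groups nearly met, with the lowest siHNRNPK library at 1.04 times the highest control. The filter on low counts fixed the direction of CXCL3 and favoured that of CXCL1 and CXCL2, and CXCL8 was chosen for its rise. For comparison, 644 of 20037 protein-coding genes (3.21%) had at least 50% of their body in siHNRNPK H3K9me3 domains and no base in control ones. Of these 293 were tested, of which 111 were higher, 96 lower and 86 not called, with a median log2 fold change of 0.02. A call as higher was made for 35.5% of all tested genes and a call as lower for 36.1%. Over all protein-coding genes the share with at least 50% of the body in H3K9me3 domains was 7.24% in control and 10.9% in siHNRNPK, and in lamin B1 domains 9.94% and 6.80%. CXCL16 lay in no domain of any list, with the nearest H3K9me3 domain 300.1 kb away in control and 295.1 kb in siHNRNPK.

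**Figure D4:**
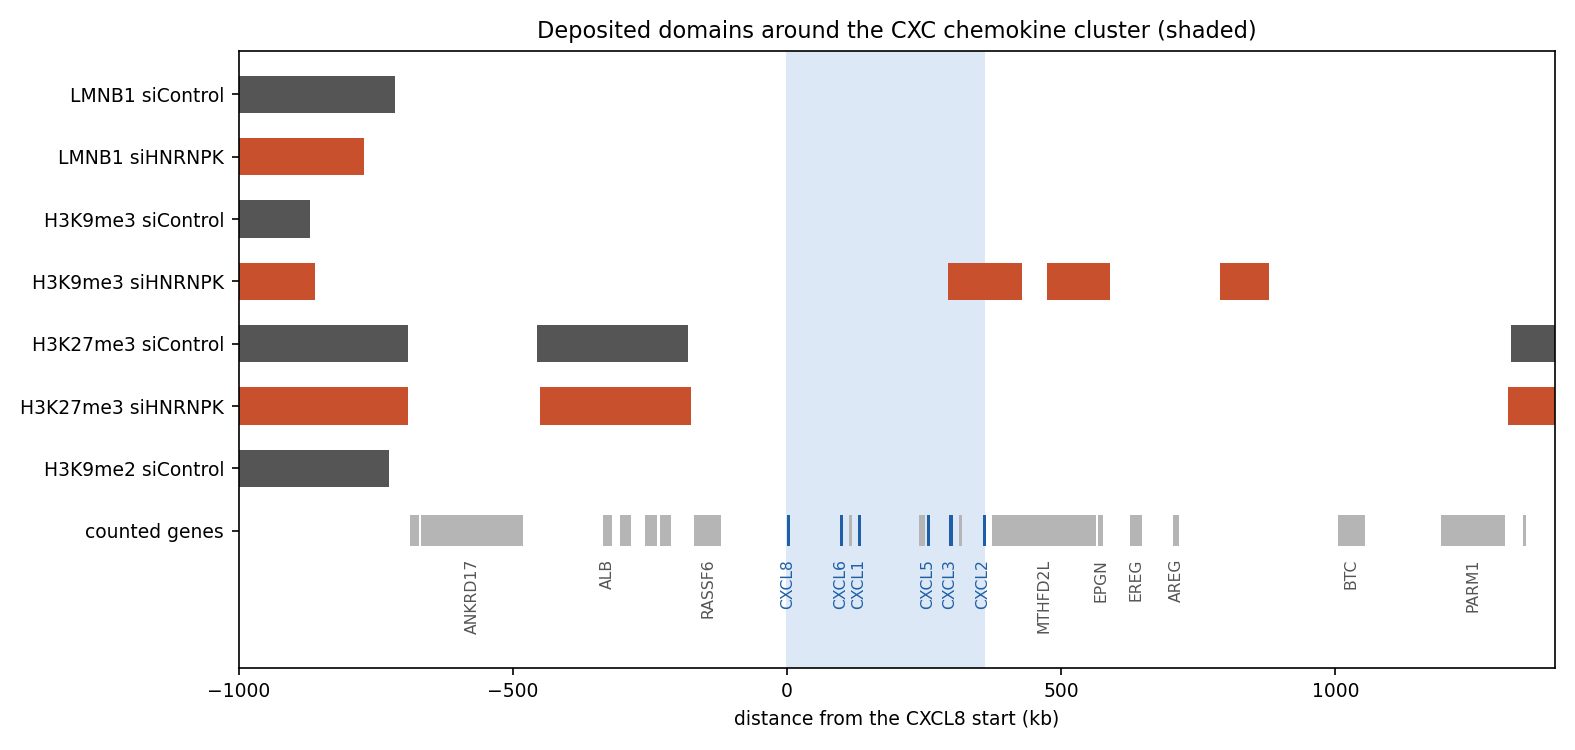
Domains of the 7 lists around the cluster, by distance from the CXCL8 start in kb (horizontal axis); grey bars are control lists, orange bars siHNRNPK lists, and the lowest row shows counted genes, with the chromosome 4 chemokines in blue and the cluster shaded. Only an H3K9me3 domain of the siHNRNPK list, from 294.4 to 429.4 kb, enters the shaded cluster, over CXCL3 and CXCL2.

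Genes that followed CXCL8 most closely over the 8 libraries were sought by Pearson correlation of log2(CPM + 1), among 9996 genes with an average log2 CPM of at least 3. The 5 with the highest r were KRT80, an epithelial keratin (0.9986), TXNRD1, a thioredoxin reductase (0.9983), ZNF561 (0.9981), CXADR, a junction protein and virus receptor (0.998), and MBIP (0.998). These values mostly describe the separation of 2 groups of 4: 176 genes had an r of at least 0.99, and KRT80 went from 2.36 to 54.8 CPM while TXNRD1 went from 654 to 1020. Of the members, CXCL1 had an r of 0.917, CXCL3 0.906, CXCL2 0.824 and CXCL16 0.773. The GRO genes lay below the level asked of candidates.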

How the data were processed

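Counts of 10 RNA libraries and 7 domain lists were used. RNA values are whole-number counts per gene symbol as deposited by the authors, with STAR 2.7.1a, featureCounts, Subread 2.0.6 and hg38 named in the submitters' processing notes. For the Scramble tables these notes name both hg19 and hg38, and which was used for counting is not given in the sources used here. Each domain carries a score deposited by the authors. For ChIP the submitters' processing notes name fastp 0.23.2, Bowtie2 2.5.1, deepTools 3.1.3 and hg38. The domain caller, the pooling of replicates and the strand counted are not given in the sources used here.

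The 8-library table was fitted in edgeR 4.0.16 (R 4.3.3, limma 3.58.1) with filterByExpr, TMM and the quasi-likelihood test in a model of kit and siRNA, with Benjamini-Hochberg adjustment over 13933 genes and a threshold of 0.05. The kit interaction used the same libraries. Scramble was compared with siNTC5 over 26283 shared names, 756 of them through RefSeq synonyms. CXCL8 stands under that symbol in both. SE is the log2 fold change over the square root of F. Libraries with the same replicate number deviated together (r across genes 0.1004, 0.4246, 0.3365 and 0.2653), so a replicate block was run as an alternative and is given where it changes a call; numbers within a kit correlated at 0.0582 and 0.009. Tested on simulated data with 200 genes changed 4-fold among 13933, the fit tested 194 and called all 194 with the right sign, with 8 unchanged genes called. The simulated counts had the same dispersion for every gene, no kit effect and far fewer changed genes than were called here. The run therefore checks the code and gives no error rate for these data.

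Members, lists and motifs were chosen with earlier results of these data known. Named genes are the members, HNRNPK, tested genes within 1 Mb, the 3 largest called changes of each list and the 5 genes most like CXCL8. The other called genes of the cytokine list, the NF-kappa-B subunits, TNFAIP3 and NFKBIZ were added after their values were seen. So were ZFP36, the FOS and JUN genes, CCL20 and the values of the chemokine receptors. Positions and promoters are from RefSeq (GRCh38.p14), with 6 of 7 promoters matched. Alternatives were DESeq2 1.42.0, its size factors, other filters, kit terms, kits alone, added controls, each library left out, and other domain limits. Python 3.11.15 with pandas 2.3.3, Biopython 1.88 and matplotlib 3.10.9 was used for the rest.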

Additional observations from a re-analysis of the deposited data

How the results depend on the processing

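Under 17 alternatives the knockdown calls numbered 7152 to 10865 against 9968, and the Scramble calls 8817 to 10622 under 11 alternatives against 10061. CXCL8 kept its direction in all 17, at 4.08 to 4.81 on the log2 scale. CXCL1 and CXCL3 kept direction and call in 16 of 16, at 1.57 to 1.98 and 1.45 to 3.07, and CXCL2 in 15 of 16, at 0.83 to 1.51 (adjusted p 0.0003366 to 0.1191). In the main fit the filter on low counts fixed the direction of CXCL3 and favoured that of CXCL1 and CXCL2. These numbers of alternatives are therefore not read as support. With no filter on low counts the log2 fold changes were 1.77 for CXCL1, 1.04 for CXCL2 and 2.19 for CXCL3. A mean of at least 50 counts left CXCL1, CXCL2 and CXCL3 untested. CXCL16 kept its call in 6 of 17, lost it in 10 and turned to -0.01 with Scramble libraries added (range -0.01 to 0.20, adjusted p 0.01352 to 0.9486). The replicate block gave 9872 calls and, among the members, changed only that of CXCL16 (0.13, adjusted p = 0.06364). The kit interaction count of 18 was 71 with the DESeq2 Wald test, 239 with no filter and 6 to 598 with each library left out, with 598 without siNTC5 replicate 2 and 364 without siNTC5 replicate 1; the cause was not tested. The reversed values left the call unchanged: with each library left out, the interaction ranged from -0.91 to 0.24 for CXCL1 and from -0.27 to 1.02 for CXCL2, and Scramble minus siNTC5 from -0.08 to 0.22 for CXCL8 and from -0.30 to 0.87 for CXCL1. H3K9me3 cover of the cluster in siHNRNPK was 0% with domains at or above the median score and 24.2% with 100 kb added on each side, against 17.9%. Depth limits CXCL3, CXCL5 and CXCL6 most, with at most 11, 0 and 0 control counts in the siNTC5 libraries.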
